A study of Mus musculus with 2 samples.

Results

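The Wnt ligands, receptors and antagonists named in a marker table of mouse gastric tumor cells were examined cluster by cluster. Members were found by name alone. They are the genes of the Wnt, Fzd, Sfrp, Dkk and Rspo families that the table names, and 14 further names of receptors, feedback inhibitors and nuclear factors. This gave 40 of the 18319 genes that the table names, and 12 of the 14 further names were among them. Family genes that the table lists for no cluster are not counted. The secreted inhibitor Wif1 and the Wnt deacylase Notum were not analysed here. The cells came from 2 tumors that had grown in female NuJ mice, a nude strain without a thymus, after injection of cells labelled DP-DSC. A cystic adenocarcinoma was taken at week 10 and a tubular adenocarcinoma at week 13, with 1 single-cell library of each, made on the inDrop droplet platform. The labels call the cells tumor cells, and whether a cell came from the graft or from the host cannot be told apart in this table.

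The table is the authors' own comparison of 11 cell clusters. It gives a linear fold and a p-value for each gene that it lists in a cluster, and every fold exceeds 1.5. The sources used here do not give the cells that a fold refers to, how many cells a cluster holds, or the depth of a cell. The label of the table gives a round number of cells each, without saying whether per library or per cluster, and it was not used. A gene is called listed where the table gives it for a cluster, and raised where that fold reached 2 and the p beside it did not exceed 0.05. Cells rather than animals stand behind the p, so it serves as a filter and is not printed. No value has an error across animals, tumor types cannot be compared, and with the reference cells unknown, folds of different clusters may not share a scale. Genes that were lower in a cluster are not seen.

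Wnt proteins are secreted lipid-modified ligands. They bind Frizzled receptors, and with the co-receptors Lrp5 and Lrp6 they stop the destruction of beta-catenin, which then acts with Tcf and Lef factors on target genes. R-spondins bind Lgr receptors and remove the ubiquitin ligases Rnf43 and Znrf3, which otherwise clear Frizzled from the cell surface. Secreted Sfrp proteins bind Wnts, and Dkk proteins other than the divergent Dkk3 bind Lrp5 and Lrp6. Axin2, Nkd1, Rnf43 and Znrf3 are known as targets of the pathway that dampen it. Other ligands, with Wnt5a as the best known, act through Ror receptors without beta-catenin. In the stomach, stromal R-spondin and Wnt signalling are known to maintain gland stem cells.

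Raised Wnt members lay mainly in 3 clusters: 19 of 40 in cluster 9, 14 in cluster 6 and 12 in cluster 11. Those are 47.5%, 35% and 30% of the members, beside 26.6%, 20.3% and 17.0% of all named genes. The macrophage-like cluster 4 had 0 of 40 members raised, although 18.6% of all named genes were raised there. Clusters 3, 7 and 10 had 2 raised members each, beside 4.0%, 3.42% and 4.90% of all named genes. Clusters 2 and 5 had 1 each, beside 2.89% and 4.32%, and clusters 1 and 8 had 0, beside 1.82% and 6.36%. The shares in clusters 2, 3, 5, 7 and 10 are thus near those of all genes. In at least 1 cluster 35 of the 40 members (87.5%) were raised, beside 78.0% of all named genes. Of the members, 18 were each raised in exactly 1 cluster (45%, beside 50.9% of all genes) and 16 in 2 clusters (40%, beside 22.3%). Only 1, Wnt5a, was raised in 3 (2.5%, beside 4.44%).

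**Figure D1:**
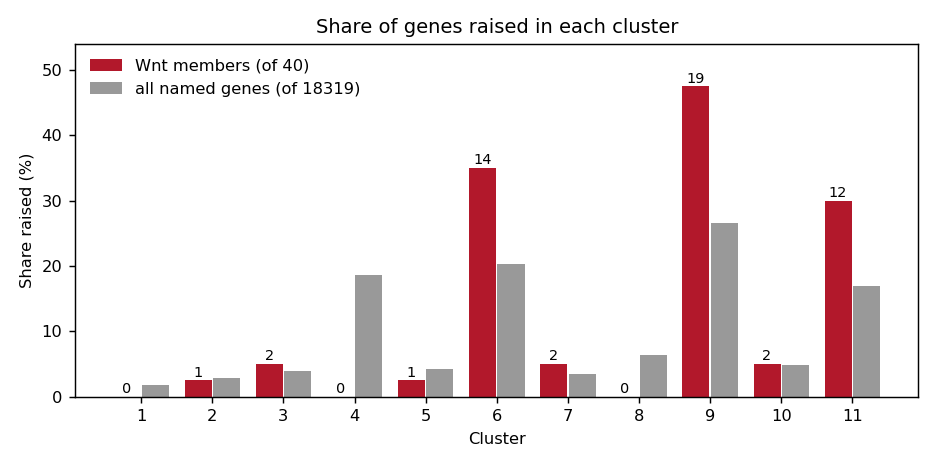
Share of the 40 Wnt members (red, with their number above the bar) and of all 18319 named genes (grey) raised in each cluster, in percent. Red bars exceed grey ones clearly in clusters 6, 9 and 11, and cluster 4 has a grey bar of 18.6% with no raised member.

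Listing alone, at any p, gave a higher count for cluster 3, at a share not far above that of all genes. Of the 40 members, clusters 6, 9, 11 and 3 listed 23, 21, 17 and 14. Those are 57.5%, 52.5%, 42.5% and 35%, beside 36.4%, 38.9%, 25.7% and 29.9% of all named genes. Cluster 4 listed 7 members (17.5%, beside 31.5%) and cluster 8 listed 1 (2.5%, beside 26.4%). Clusters 5 and 10 listed 5 each, beside 20.6% and 18.9%. Clusters 7, 2 and 1 listed 3, 2 and 1, beside 12.1%, 9.07% and 6.34%. All 14 members listed in cluster 3 had a fold of at least 2, and 12 of them missed the p. The 2 raised ones are 14.3% of the listed members, beside 13.4% of all genes listed there. The median fold of the listed members was 3.39 in cluster 6, 3.13 in cluster 9 and 4.34 in cluster 11 per the authors' deposited table, beside medians of 2.57, 2.46 and 3.27 over all genes listed there. In cluster 4 it was 2.29, beside 2.76.

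The clusters were read against marker lists. All 11 fibroblast markers were raised in cluster 11, which is called fibroblast-like, with 2 of 6 named pericyte and smooth muscle markers (Acta2 and Tagln) and 2 of 6 named endothelial markers (Tek and Kdr) also raised. Clusters 6 and 9 each raised 7 of 7 named surface mucous markers and 5 of 9 general epithelial markers, and are called surface-mucous-like. They also raised 4 and 5 of 9 mucous neck and metaplastic gland markers, so the name does not cover their whole profile. Cluster 4 raised 10 of 10 macrophage markers and is called macrophage-like. It also raised 3 of 9 dendritic cell markers, and Pdgfrb, Muc6 and Kit from other lists. Cluster 8 raised 10 of 10 macrophage markers beside 7 of 9 dendritic cell markers and has no name. Cluster 3 listed 7 surface mucous markers and raised 3, with 4 of 9 general epithelial and 4 of 9 mucous neck and metaplastic gland markers raised. Cluster 10 raised 6 of 7 named neutrophil markers and 5 of 7 named T and NK markers, with 5 of 10 macrophage and 3 of 9 dendritic cell markers. Cluster 2 raised 5 of 6 erythroid markers, and cluster 5 raised 3 of 6 named mast cell markers. Cluster 7 raised 2 of 9 general epithelial markers and 3 of 9 mucous neck and metaplastic gland markers. Those clusters keep their numbers.

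**Figure D2:**
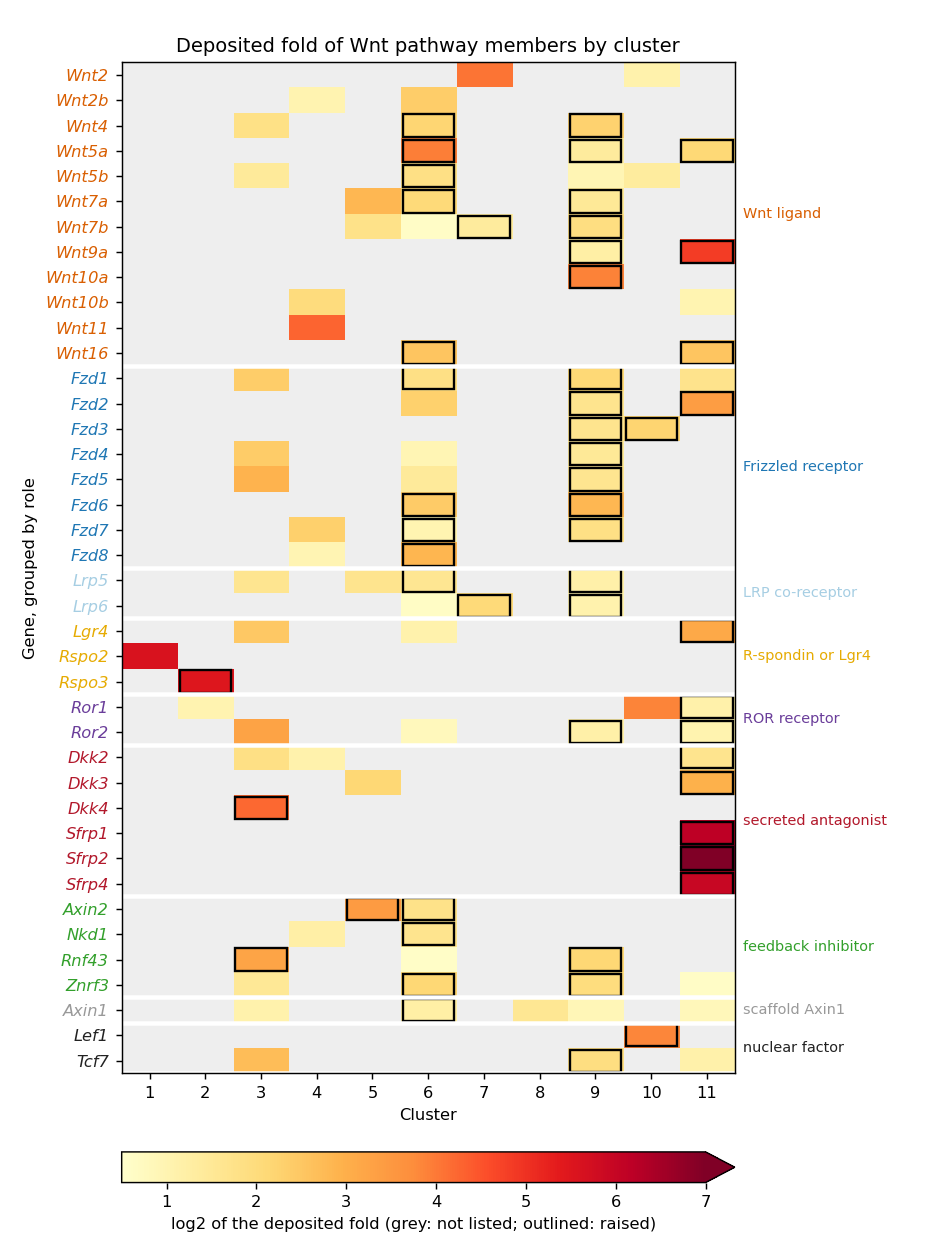
Deposited fold of each of the 40 members (rows, by role) in each of the 11 clusters (columns), as log2. Grey cells are not listed and outlined cells are raised. The Sfrp genes fill cluster 11 alone, while Frizzled genes are outlined mostly in clusters 6 and 9.

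Upstream sequence is shown for 4 members with the patterns of clusters 6 and 11: Sfrp2 and Dkk2, antagonists raised in the fibroblast-like cluster; Wnt16, a ligand raised in clusters 6 and 11; and Axin2, a feedback gene raised in clusters 5 and 6. None of the 4 was raised in cluster 9, and none is a Frizzled gene. Each line gives the 250 bases before the RefSeq transcript start on GRCm38.p6, plus strand, 5′ to 3′, with CpG dinucleotides in capitals. The windows are chr3:83766071-83766320 for Sfrp2, chr3:132085042-132085291 for Dkk2, chr6:22287977-22288226 for Wnt16 and chr11:108920099-108920348 for Axin2. None overlaps an annotated exon, and each ends at the base before the gene's start in GENCODE M21.
Sfrp2: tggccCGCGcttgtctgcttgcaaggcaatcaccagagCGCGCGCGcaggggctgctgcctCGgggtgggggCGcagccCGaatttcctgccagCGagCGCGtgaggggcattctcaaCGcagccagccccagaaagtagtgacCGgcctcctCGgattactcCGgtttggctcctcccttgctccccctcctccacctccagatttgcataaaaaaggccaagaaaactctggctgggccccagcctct
Dkk2: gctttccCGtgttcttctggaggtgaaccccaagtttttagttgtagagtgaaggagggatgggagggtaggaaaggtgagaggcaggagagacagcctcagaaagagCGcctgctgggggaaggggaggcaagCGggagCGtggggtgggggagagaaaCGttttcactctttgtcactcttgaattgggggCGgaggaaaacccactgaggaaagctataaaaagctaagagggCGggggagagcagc
Wnt16: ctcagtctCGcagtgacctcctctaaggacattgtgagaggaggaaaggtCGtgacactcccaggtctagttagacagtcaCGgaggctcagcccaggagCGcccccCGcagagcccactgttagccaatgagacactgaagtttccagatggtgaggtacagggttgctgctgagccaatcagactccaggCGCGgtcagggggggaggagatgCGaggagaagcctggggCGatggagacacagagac
Axin2: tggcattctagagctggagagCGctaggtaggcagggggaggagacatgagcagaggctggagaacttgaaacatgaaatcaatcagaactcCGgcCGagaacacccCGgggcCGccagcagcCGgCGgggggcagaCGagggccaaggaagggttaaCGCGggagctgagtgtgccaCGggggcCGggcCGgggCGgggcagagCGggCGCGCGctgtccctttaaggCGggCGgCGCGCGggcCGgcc

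The windows of Axin2 and Sfrp2 held 24 and 16 CpG dinucleotides, and those of Wnt16 and Dkk2 held 9 and 7. The median over 32851 windows of the same length in the RefSeq table was 6, and over the 31 windows of the 23 members that the table holds it was 15. The core of the Tcf and Lef motif, CTTTGA, was searched on both strands. It was in none of the 4 windows printed. It was in 5 of the 31 member windows (16.1%), 1 each of Fzd1, Lef1, Ror1, Wnt5b and Wnt11, and in 13.8% of all windows. A match is not a binding site, and sites outside these windows were not searched.

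Of the 12 named Wnt genes, 8 (66.7%) were raised somewhere, beside 78.0% of all named genes. Cluster 9 raised 6 (50%, beside 26.6%), cluster 6 raised 5 (41.7%, beside 20.3%), cluster 11 raised 3 (25%, beside 17.0%) and cluster 7 raised 1 (8.33%, beside 3.42%). Wnt7b, a ligand of the beta-catenin branch made by epithelia, stood at position 69 by p among the 7131 genes of cluster 9. The authors' deposited table gave it a fold of 3.77 there and of 2.60 in cluster 7, where it was raised as well. In cluster 6 it was listed at 1.54 and in cluster 5 at 3.41, in neither case raised, per the authors' deposited table. Wnt10a, another ligand of the beta-catenin branch, was listed in cluster 9 alone, at 14.9 per the authors' deposited table, above 99.1% of the folds listed there. Wnt10a lies on chromosome 1 from 74791516 to 74804179, and Wnt7b on chromosome 15 from 85535437 to 85582473.

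Wnt5a was the member raised most widely. In the authors' deposited table it was at 15.3 in cluster 6, 2.59 in cluster 9 and 4.34 in cluster 11, so it was raised in both surface-mucous-like clusters and in the fibroblast-like one. Its fold exceeded 98.4% of the folds listed in cluster 6, but only 54.1% in cluster 9 and 61.5% in cluster 11. Wnt5a lies on chromosome 14 from 28504750 to 28527448. Its close relative Wnt5b was raised only in cluster 6, at 3.56 per the authors' deposited table, and was listed without being raised at 2.69 in cluster 3, 1.91 in cluster 9 and 2.56 in cluster 10.

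Wnt4 and Wnt7a were raised in the surface-mucous-like clusters. For Wnt4 the authors' deposited table gave 4.56 in cluster 6 and 4.80 in cluster 9, and 3.5 in cluster 3, where it was not raised. Wnt7a had folds of 4.17 in cluster 6 and 2.80 in cluster 9 per the authors' deposited table, and 7.06 in cluster 5, where it was not raised. Wnt16 was raised in clusters 6 and 11 at 5.81 and 5.85 per the authors' deposited table, above 87.2% and 71.4% of the folds listed there. Wnt9a was the ligand of largest fold in the fibroblast-like cluster, 28.5 in the authors' deposited table, at position 287 of 4710 by p. It was raised in cluster 9 as well, at 2.32 per the authors' deposited table but at position 6363 of 7131. Wnt9a lies on chromosome 11 from 59306928 to 59333552.

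The other 4 ligands, Wnt2, Wnt2b, Wnt10b and Wnt11, were listed and nowhere raised. Wnt11, a ligand of the branch without beta-catenin, had a fold of 19.2 in the macrophage-like cluster 4 per the authors' deposited table, above 98.4% of the folds there, at position 4417 of 5762 by p. Wnt2 was at 16.7 in cluster 7 and 2.13 in cluster 10 per the authors' deposited table. Wnt2b was at 2.03 in cluster 4 and 5.16 in cluster 6 per the authors' deposited table. Wnt10b came closest to the fold threshold, at 1.99 in cluster 11 per the authors' deposited table, where it passed the p, and was at 3.98 in cluster 4, where it did not.

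All 8 named Frizzled receptors were raised somewhere, beside 78.0% of all named genes. The 6 secreted antagonists, 4 feedback inhibitors, 2 co-receptors, 2 Ror receptors, 2 nuclear factors and Axin1 were too. Each of these groups is small, so its full count says little beside that share. Cluster 9 raised 7 Frizzled genes, Fzd1 to Fzd7 (87.5%, beside 26.6% of all genes), and Fzd8 was not listed there. Cluster 6 raised 4 (50%, beside 20.3%) and listed 7. The fibroblast-like cluster and cluster 10 raised 1 each (12.5%, beside 17.0% and 4.90%). The largest Frizzled fold that the authors' deposited table gave in cluster 9 was that of Fzd6, 7.10, and Fzd6 was raised in cluster 6 at 5.31. Fzd8 had the largest of cluster 6, 7.21 per the authors' deposited table, and its only other listing was 1.97 in cluster 4, not raised. Fzd1 was raised at 3.56 in cluster 6 and 4.33 in cluster 9 per the authors' deposited table, and listed without being raised at 5.16 in cluster 3 and 3.28 in cluster 11. Fzd7 was raised at 2.01 in cluster 6, just past the threshold, and at 3.58 in cluster 9 per the authors' deposited table; its 4.94 in cluster 4 was not raised.

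Fzd2 was the only Frizzled gene raised in the fibroblast-like cluster. There the authors' deposited table gave it 10.5, at position 588 of 4710 by p, against 3.13 in cluster 9 at position 2314 of 7131. In cluster 6 it was listed at 4.89 per the authors' deposited table and not raised. Fzd3 was raised in cluster 9 at 3.15 and in cluster 10 at 4.63 per the authors' deposited table. Fzd4 and Fzd5 were raised in cluster 9 alone, at 2.78 and 3.08 per the authors' deposited table. Both were also listed in clusters 3 and 6 without being raised, Fzd4 at 5.29 and 1.93 and Fzd5 at 7.46 and 2.69 per the authors' deposited table.

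Where the co-receptors were raised, their folds ran from 2.08 to 4.15 per the authors' deposited table. Lrp5 was raised at 3.0 in cluster 6 and 2.22 in cluster 9 per the authors' deposited table, the latter at position 359 of 7131. Clusters 3 and 5 listed it at 3.11 and 3.13 per the authors' deposited table where it was not raised. Lrp6 was raised at 4.15 in cluster 7 and 2.08 in cluster 9 per the authors' deposited table, and listed at 1.56 in cluster 6. No listing of either co-receptor was found in cluster 11.

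Ror1 and Ror2, the receptors linked to Wnt5a, were both raised in the fibroblast-like cluster, at 2.16 and 2.07 per the authors' deposited table. Those folds lie close to the threshold, above only 26.5% and 23.6% of the folds listed there, although the positions by p were 1469 and 836 of 4710. Ror2 was raised in cluster 9 too, at 2.27 per the authors' deposited table, and listed without being raised at 9.58 in cluster 3 and 1.74 in cluster 6. Ror1 was listed at 14.5 in cluster 10 and 2.03 in cluster 2 per the authors' deposited table, in neither raised.

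R-spondins were found outside the clusters that raised most Wnt members. Rspo3 was listed in cluster 2 alone and raised there. The authors' deposited table gave it a fold of 44.6, above 97.2% of the folds and at position 622 of 1661 by p. Cluster 2 raised 5 of 6 named erythroid markers. It listed, without raising them, 3 of 6 named endothelial, 4 of 7 named neutrophil, 2 of 6 named mast cell and 2 of 10 macrophage markers. Among these, Eng was at 26.6, Cdh5 at 8.05, Tek at 3.97 and the neutrophil marker Mmp9 at 52.9 per the authors' deposited table. The dendritic cell marker Ccr7, also not raised, was at 157 per the authors' deposited table. The part of any of these cell types in the Rspo3 value was not tested. Rspo2 was listed in cluster 1 alone, at 48.6 per the authors' deposited table, and was not raised. Cluster 1 listed 6 of 6 named erythroid markers and raised 1, Slc4a1, at 31.7 per the authors' deposited table. It listed, without raising them, 1 of 6 named endothelial and 2 of 4 named nerve and glia markers. The part of these cell types in the Rspo2 value was not tested. The R-spondin receptor Lgr4 was raised in the fibroblast-like cluster at 8.67 per the authors' deposited table. It was listed at 5.52 in cluster 3 and 2.13 in cluster 6 without being raised.

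The largest folds of all members belonged to secreted antagonists, of which 5 of 6 (83.3%, beside 17.0% of all genes) were raised in the fibroblast-like cluster. The authors' deposited table gave Sfrp2 a fold of 473 there, above 99.9% of the folds listed and at position 90 of 4710 by p. Sfrp1 followed with 70.5 at position 170 and Sfrp4 with 61.7 at position 166 per the authors' deposited table. None of the 3 was listed in any other cluster. Sfrp2 lies on chromosome 3 from 83766321 to 83774316, Sfrp1 on chromosome 8 from 23411502 to 23449632 and Sfrp4 on chromosome 13 from 19623104 to 19632994. For scale, the fibroblast markers Col1a1 and Pdgfra were at 312 and 284 in the same cluster per the authors' deposited table.

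The 3 named Dkk genes were listed in clusters 3, 4, 5 and 11. Dkk3, a divergent member of the family, is counted among the antagonists by its name alone. It was raised in the fibroblast-like cluster at 7.75 per the authors' deposited table and listed in cluster 5 at 4.37. Dkk2 was raised in the fibroblast-like cluster at 3.17 per the authors' deposited table, and its 3.54 in cluster 3 and 2.13 in cluster 4 were not raised. Dkk4, itself known as a target of beta-catenin, was listed in cluster 3 alone and raised there. Its fold in the authors' deposited table was 18.7, above 97.6% of the folds and at position 452 of 5474. Clusters 6 and 9 listed none of the 6 antagonists.

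**Figure D3:**
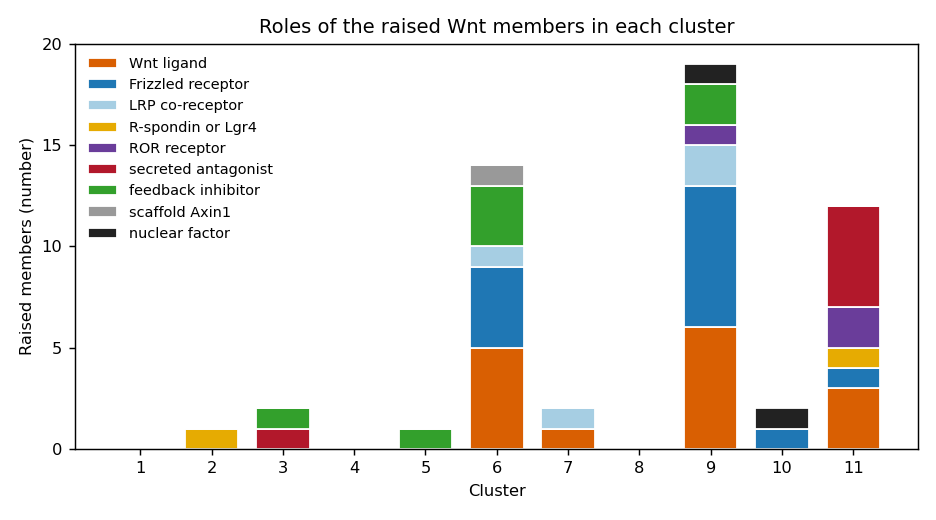
Number of raised members of each role in each cluster, stacked. Cluster 11 holds 5 secreted antagonists of its 12 raised members, clusters 6 and 9 hold none and carry 4 and 7 Frizzled receptors.

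All 4 feedback inhibitors were raised somewhere, beside 78.0% of all named genes. Cluster 6 had 3 of 4 raised and cluster 9 had 2 (75% and 50%, beside 20.3% and 26.6%). Clusters 3 and 5 had 1 each (25%, beside 4.0% and 4.32%), and the fibroblast-like cluster had 0, beside 17.0%. Axin2, the scaffold most used as a readout of beta-catenin activity, was raised at 3.39 in cluster 6 and 10.8 in cluster 5 per the authors' deposited table, and listed nowhere else. Its positions by p were 4781 of 6664 and 753 of 3765. Cluster 5 also raised 3 of 6 named mast cell markers and 1 of 9 general epithelial markers, and which cells carry Axin2 there was not tested. Axin2 lies on chromosome 11 from 108920349 to 108950783.

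Nkd1, an inhibitor of Dishevelled, was raised in cluster 6 alone, at 3.18 per the authors' deposited table, and its 2.29 in cluster 4 was not raised. Rnf43 was raised at 4.37 in cluster 9 and 9.30 in cluster 3 per the authors' deposited table, and in cluster 6 it was listed at 1.502. Znrf3, the partner ligase of Rnf43, was raised at 4.42 in cluster 6 and 3.86 in cluster 9 per the authors' deposited table, with 2.84 in cluster 3 and 1.54 in cluster 11 not raised. The scaffold Axin1, part of the destruction complex, was raised in cluster 6 at 2.35 per the authors' deposited table. It was listed in 4 further clusters, clusters 3, 8, 9 and 11, at 2.12, 2.92, 1.87 and 1.78 per the authors' deposited table.

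The nuclear factors Lef1 and Tcf7 were raised in different clusters. Lef1 was listed in cluster 10 alone and raised there. The authors' deposited table gave it a fold of 14.2, at position 337 of 3466 by p. Both factors are also known from T cells, and cluster 10 raised 5 of 7 named T and NK markers, with Cd4 at 111 and Cd3e at 25.9 per the authors' deposited table. Their part in the Lef1 value was not tested. Tcf7 was raised in cluster 9 at 3.76 per the authors' deposited table, where 0 of 7 T and NK markers were listed. A marker that is not listed may be undetected, and the part of T cells in the Tcf7 value was not tested. In clusters 3 and 11 it was listed at 6.46 and 2.19 per the authors' deposited table and not raised. Lef1 lies on chromosome 3 from 131110471 to 131224356.

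**Figure D4:**
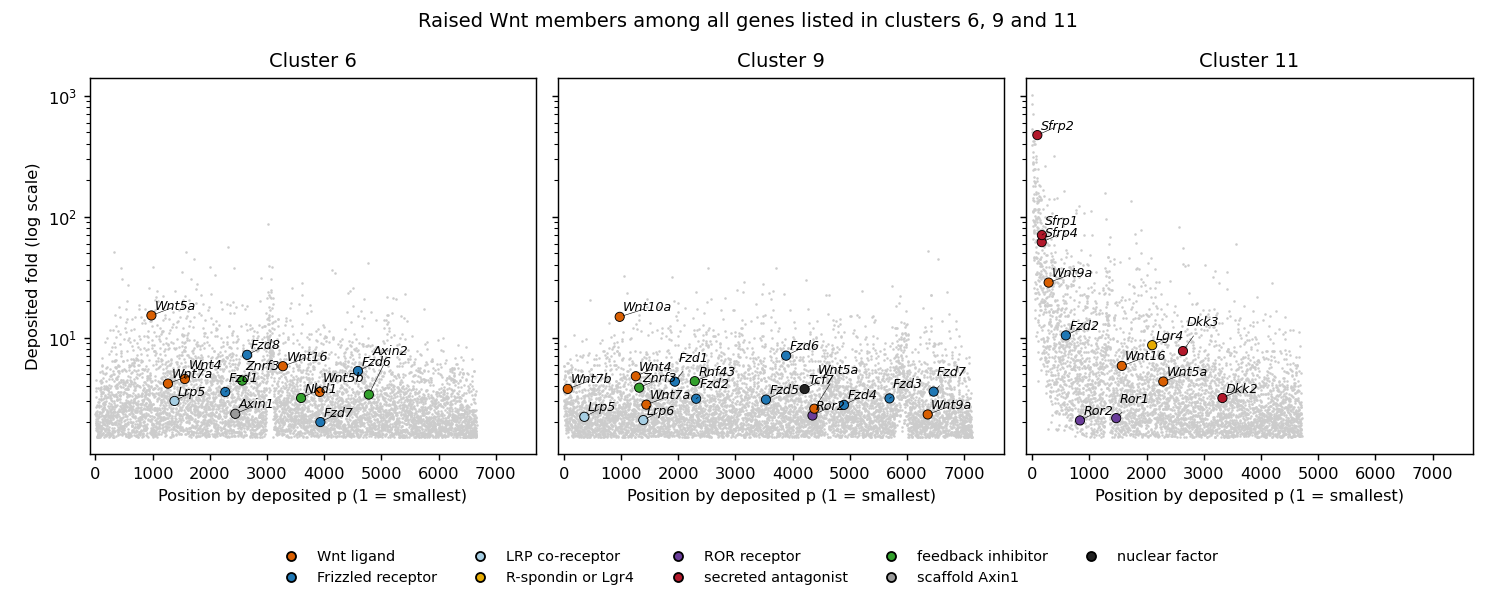
Deposited fold (log axis) against position by deposited p for all genes listed in clusters 6, 9 and 11 (grey) and the raised members (coloured by role). In cluster 11 Sfrp2, Sfrp1, Sfrp4 and Wnt9a lie at the upper left, with large folds at early positions, while in clusters 6 and 9 most members lie within the main cloud.

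Among the first 1000 genes of a cluster by p, those with a fold of at least 2 included 6 members in cluster 11 (15% of the members, beside 5.27% of all genes), namely Sfrp2, Sfrp4, Sfrp1, Wnt9a, Fzd2 and Ror2. They included 3 in cluster 9 (7.5%, beside 3.67%), namely Wnt7b, Lrp5 and Wnt10a, and 1 in cluster 6, Wnt5a (2.5%, beside 3.92%).

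Genes of the wider pathway were counted from 7 further lists. For Wnt secretion, cluster 6 raised 3 of 5 genes (60%, beside 20.3% of all named genes): the retromer subunit Vps35 at 2.95, the Wnt carrier Wls at 2.56 and the acyltransferase Porcn at 2.13 per the authors' deposited table. Porcn was raised in cluster 7 too, at 11.8 per the authors' deposited table, the largest fold of this list (20% of the list there, beside 3.42%). Cluster 11 raised 2 (40%, beside 17.0%), Wls at 3.20 and Vps35 at 2.90, and cluster 9 raised Vps35 alone (20%, beside 26.6%) at 3.06 per the authors' deposited table. Further surface receptors and modulators had 9 of 15 named genes raised in cluster 11 (60%, beside 17.0%), 7 in cluster 9 (46.7%, beside 26.6%) and 0 in cluster 6, beside 20.3%. Reck, which with Adgra2 forms a receptor complex for Wnt7 ligands, was at 99.0 in cluster 11, Adgra2 at 41.1 and the glypican Gpc3 at 20.6 per the authors' deposited table. The ligands Wnt7a and Wnt7b themselves were not listed in cluster 11.

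Cytoplasmic genes of the pathway had 10, 7, 5 and 3 of 19 named genes raised in clusters 6, 9, 4 and 11. Those are 52.6%, 36.8%, 26.3% and 15.8%, beside 20.3%, 26.6%, 18.6% and 17.0% of all genes. The inhibitor Nkd2 at 5.35, the kinase Csnk1g1 at 3.55 and the scaffold Apc at 3.32 led in cluster 6 per the authors' deposited table. Nuclear partners had 4 of 12 named genes raised in cluster 9 (33.3%, beside 26.6%), led by Bcl9l at 3.71, Tle2 at 3.53 and Tle1 at 3.09 per the authors' deposited table, and 3 each in clusters 6 and 11 (25%, beside 20.3% and 17.0%). Reported target genes had 6 of 18 named genes raised in cluster 6 and 6 in cluster 9 (33.3%, beside 20.3% and 26.6%), 5 in cluster 3 (27.8%, beside 4.0%) and 3 in cluster 11 (16.7%, beside 17.0%). Nkd2, Ephb3 and Fgf20 led in cluster 6 at 5.35, 3.64 and 3.59, and Ephb3, Ccnd1 and Tnfrsf19 in cluster 9 at 2.97, 2.47 and 2.47, per the authors' deposited table. The lists share genes, so their counts are not separate. Nkd2 is also on the cytoplasmic list, and Tnfrsf19, Lgr5 and Apcdd1 are also among the surface receptors and modulators. Lgr5 and Apcdd1 count as raised in cluster 11 on both of their lists.

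Several wider genes were picked after their values were seen. Beta-catenin itself, Ctnnb1, was raised in cluster 9 at 2.33 and listed in clusters 6 and 5 at 1.84 and 1.89 per the authors' deposited table, each time among the first 90 genes by p. The R-spondin receptor Lgr5 was raised in cluster 11 at 10.2 per the authors' deposited table, and its relative Lgr6 in cluster 9 at 4.61. The secreted antagonist Frzb, of the Sfrp family, was raised in cluster 3 at 15.7 per the authors' deposited table, the cluster in which Dkk4 was raised.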

How the data were processed

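Cells of 2 tumors, 1 library per type, were grouped by the labels. The submitters' processing notes name mm10, STAR 2.7.3a, Partek and DESeq2 3.5, with no step given for each. The authors' deposited table gives a linear fold (a ratio) and a p-value per gene and cluster, per the file headers; the sources used here do not give the filters on cells, how doublets were treated, or the test. Per-sample values fill 0 of its columns, so no test was run and there is no depth per sample to report.

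Members were matched by symbol, counted as listed or raised, and set beside all 18319 genes. Percentiles and positions by p are within a cluster. The members, lists and markers were chosen with earlier results of these data known. All members are named; of each wider list, the 3 raised genes of largest fold in its leading cluster are named. Counting was tested on a made-up table. Other settings tried were a fold of at least 1.5 or 3, p at most 0.01, no p, and the first 1000 genes by p, the last added after the data were seen. Positions (40 of 40 matched) are from GENCODE M21 on GRCm38 (mm10), 1-based, and promoters from RefSeq. Python 3.11.15 and pandas 2.3.3 were used.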

Additional observations from a re-analysis of the deposited data

How the results depend on the processing

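The number of members raised in each cluster and in at least 1 cluster was recomputed under 5 other settings. At a fold threshold of 1.5 every count stayed within 1.5 times its value. At a fold of at least 3 the count in cluster 9 went from 19 to 12 and in cluster 7 from 2 to 1. The share of all genes fell there as well. In cluster 9 it went from 26.6% to 14.1%, while that of the members went from 47.5% to 30%. In cluster 7 it went from 3.42% to 2.01%, while that of the members went from 5% to 2.5%. At a p of at most 0.01 the counts in clusters 2, 5 and 7 became 0, where the share of all genes was at most 2.98%. Those in clusters 3 and 10 became 1 (2.5%, beside 1.98% and 3.32% of all genes). Clusters 6, 9 and 11 had 12, 19 and 11 (30%, 47.5% and 27.5%, beside 16.5%, 25.6% and 14.7%). With no p threshold, clusters 1, 2, 3, 4, 5, 8 and 10 had 1, 2, 14, 6, 5, 1 and 5 members. For cluster 3 that is 35% of the members beside 22.0% of all genes, and for cluster 4 15% beside 23.2%. Clusters 1, 2, 5, 8 and 10 had 2.5%, 5%, 12.5%, 2.5% and 12.5%, beside 5.65%, 7.39%, 16.3%, 20.3% and 15.9%. The first 1000 genes by p were a setting added after the data were seen. There 17 members were raised in at least 1 cluster, a count for which the share of all genes was not computed. Clusters 6, 9 and 11 had 1, 3 and 6 (2.5%, 7.5% and 15%, beside 3.92%, 3.67% and 5.27%). Fewer genes are considered there by construction. Folds do not change with these settings. No paired analysis was possible because there is 1 library per tumor type and the table has no per-sample columns. The depth behind each fold is unknown, so a member that is not listed may be undetected.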

Other observations

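The branches of Wnt signalling that do not use beta-catenin were counted from 2 further lists. Of 16 planar cell polarity genes, which orient cells within a sheet, 6 were raised in cluster 11 (37.5%, beside 17.0% of all named genes), 4 in cluster 6 (25%, beside 20.3%) and 3 in cluster 9 (18.8%, beside 26.6%). Prickle1 at 20.6, Intu at 5.53 and Prickle2 at 3.66 led in cluster 11 per the authors' deposited table. Of 15 named genes of the calcium branch, 5 were raised in cluster 6 and 5 in cluster 9 (33.3%, beside 20.3% and 26.6%), and 4 in cluster 11 (26.7%, beside 17.0%). Nfatc2 at 4.01, Ppp3cb at 2.67 and Camk2d at 2.47 led in cluster 6, and Plcb1 at 2.74, Plcb3 at 2.29 and Ppp3cb at 2.07 in cluster 9, per the authors' deposited table. The calcium-regulated factor Nfatc4, named after its value was seen, was at 36.2 in cluster 11 per the authors' deposited table.

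The 40 members lie on 16 chromosomes, and 2 pairs lie less than 1 Mb apart. Dkk4 and Sfrp1 are 0.784 Mb apart on chromosome 8, and Dkk2 and Lef1 are 0.861 Mb apart on chromosome 3. The genes of each pair were raised in different clusters: Dkk4 in cluster 3 and Sfrp1 in cluster 11, Dkk2 in cluster 11 and Lef1 in cluster 10.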
